A study of Mus musculus with 6 samples.

Results

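The keratins of basal and stratified epithelia studied here are 8 genes, Krt4, Krt5, Krt6a, Krt10, Krt13, Krt14, Krt15 and Krt17, of the 18193 genes that the array's annotation names alone on at least 1 probe set. They were chosen by symbol, and all 8 were found, on 16 probe sets. Each gene was read from its brightest probe set, and the others served as a check. Embryos of wild-type FVB/N mice, of unknown sex, were taken at embryonic day 13, which is Theiler stage 21. Tissue of the bladder neck with the urethra was digested with trypsin and parted with a needle into epithelium (arrays 1, 2 and 5) and the surrounding mesenchyme (arrays 1, 2 and 3), numbered as in the sample titles. The comparison asks which genes differ between the layers. Per the labels, samples were not pooled and all RNA was amplified before labelling, but a separate embryo for each array is not stated. The p-values therefore measure the spread between these samples, which may be technical.

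Keratins are the intermediate filament proteins of epithelial cells, built from pairs of 1 acidic type I chain and 1 basic type II chain. Krt5 and Krt14 pair in the basal layer that rests on the basement membrane, and basal cells of many stratified and glandular epithelia also make Krt15. Krt4 and Krt13 pair in the upper layers of moist internal epithelia such as oesophagus, Krt1 and Krt10 in the upper layers of epidermis, and Krt6a and Krt17 are known from hair follicles, periderm and wounded epithelium. In the bladder, Krt5 and Krt14 are known as markers of basal urothelial cells. The type II genes here, Krt4, Krt5 and Krt6a, lie in the keratin cluster of chromosome 15, and the type I genes in that of chromosome 11. Krt6a and Krt5 are next to each other among protein-coding genes, as are Krt13 and Krt15.

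RefSeq promoter sequence on GRCm38.p6 was matched for 4 of the 8 genes, Krt5, Krt10, Krt13 and Krt14. The windows shown are the 250 bases before an annotated start, on the minus strand, and only entries that begin at the start of their gene model are shown. That leaves Krt5, a keratin with a large difference between the layers, and Krt13, which read highest on mesenchyme 1. The entries of Krt10 and Krt14 begin 8085 and 1480 bases inside their gene models, and a further Krt13 entry 989 bases inside. Capitals mark matches on either strand to the TATA box TATAAA, the AP-1 motif TGANTCA, the GC box GGGCGG, the CACCC box CACACCC, the E-box CAGCTG, or the p53-family half-site, the kind of element bound by p63, a regulator of basal epithelial cells. The windows lie at chr15:101712906-101713155 (Krt5) and chr11:100121567-100121816 (Krt13).
Krt5: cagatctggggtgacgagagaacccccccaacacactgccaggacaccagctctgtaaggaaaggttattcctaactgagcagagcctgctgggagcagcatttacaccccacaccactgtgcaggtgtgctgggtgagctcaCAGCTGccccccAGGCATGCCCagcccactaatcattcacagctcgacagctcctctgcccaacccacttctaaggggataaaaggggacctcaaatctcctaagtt
Krt13: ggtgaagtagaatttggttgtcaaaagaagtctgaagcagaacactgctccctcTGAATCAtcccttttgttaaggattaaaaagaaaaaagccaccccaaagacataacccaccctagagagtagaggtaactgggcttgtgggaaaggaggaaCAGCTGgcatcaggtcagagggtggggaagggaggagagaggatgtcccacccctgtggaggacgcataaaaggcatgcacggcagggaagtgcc

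The Krt5 window held 1 E-box, 107 to 102 bases before the start, and 1 p53-family half-site, 95 to 86 bases before it. The Krt13 window held 1 AP-1 motif, 196 to 190 bases before the start, and 1 E-box, 95 to 90 bases before it. None of these matches overlaps another. Of 32841 RefSeq windows of the same length, 13.0% held the E-box, 7.13% the half-site and 6.75% the AP-1 motif. The exact letters given for the TATA box (12.4% of windows), the GC box (32.7%) and the CACCC box (6.93%) had no match in either window. Variant forms of these boxes were not searched. A match is a description of the letters and not a bound site.

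Values below are normalized signal, the deposited probe set signal after quantile normalization across the 6 arrays. Differences are on the log2(signal + 16) scale, epithelium minus mesenchyme, which understates the change of dim genes. Detection calls were not used here, so signals near the bottom of the scale have no bound, and folds against them depend on the offset. Because a probe set's brightness depends on its sequence, signals are compared between arrays for each keratin and not between keratins. In these tissue layers, fewer keratin-bearing cells and less keratin RNA per cell cannot be told apart.

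The array labelled mesenchyme 1 stood apart, so the difference of each of the 8 keratins on its brightest probe set is given with and without it. Some differences of other genes are given only without it. Of 10 markers of liver, heart, lung and pancreas, 9 exceeded each of the other 5 arrays by over 4-fold there. Without a filter, 5.73% of all 18193 genes did so. The summed signal of the 10 markers was 280379 on mesenchyme 1 and between 670 and 1495 elsewhere. Of these markers, 0 of the 8 tested with all arrays passed limma's test. That test compares the layers, so it cannot judge an excess on 1 array. Without mesenchyme 1 only 5 of the 10 markers were bright enough to be tested. The 2 of highest mean log2 signal, Alb of liver and Cpb1 of pancreas, read 58365 and 33800 on mesenchyme 1. Caudal Hoxd13 read 504 there and 31870 to 42463 elsewhere. Of 12 epithelial markers without keratins (among them Epcam, Cdh1 and Shh), the summed signal was 189966 to 224545 on the epithelial arrays, 58664 on mesenchyme 1, 15016 on mesenchyme 2 and 1878 on mesenchyme 3, with no marker at 0. Mesenchymal markers summed to 46374 to 66279 on the epithelial arrays and 288968 to 346264 on the mesenchymal ones. Without mesenchyme 1, 11 of 14 mesenchymal, 4 of 5 endothelial and 4 of 5 pelvic neuron markers passed limma's test as higher in mesenchyme, and 12 of 12 epithelial markers as higher in epithelium. With all arrays these counts were 8, 4, 4 and 6. Over all 13573 genes tested without mesenchyme 1, 1976 passed, 868 of them as higher in epithelium and the rest as higher in mesenchyme. With all arrays 820 of 13717 passed, 267 of them as higher in epithelium.

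With mesenchyme 2 and 3 as the mesenchyme, Krt15 was 148-fold, Krt14 121-fold and Krt5 41.1-fold higher in epithelium. Krt6a was 40.7-fold, Krt4 32.9-fold and Krt17 29.9-fold higher, Krt10 3.44-fold higher, and Krt13 read low in both layers. Of the 8 genes, 7 were bright enough to be tested without mesenchyme 1, and all 7 passed limma's test as higher in epithelium (adjusted p from 0.00129 to 0.0417). Over all 13573 genes tested, 14.6% passed in either direction and 6.40% as higher in epithelium. The median log2 difference was 5.35 over these 7, which leave out the dim Krt13, and 0.02 over all genes tested. After normalization, all 8 keratins had every epithelial array above both mesenchyme 2 and mesenchyme 3, as did 23.2% of genes tested. Krt13, not among the genes tested, did so by only 1.17-fold over mesenchyme 3. In its deposited signal epithelium 2 (40.8) lay below mesenchyme 3 (45.7). With all 6 arrays, none of the 8 passed limma's test (adjusted p from 0.150 to 0.998), where 5.98% of 13717 genes did and 1.95% did as higher in epithelium. At an unadjusted p under 0.05, 6 of the 8 and 8.57% of all genes were higher in epithelium. The same test with array quality weights, which lower the influence of arrays that differ from their group, brought 7 of the 8 past the threshold with all 6 arrays, and 37.2% of all genes tested.

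**Figure D1:**
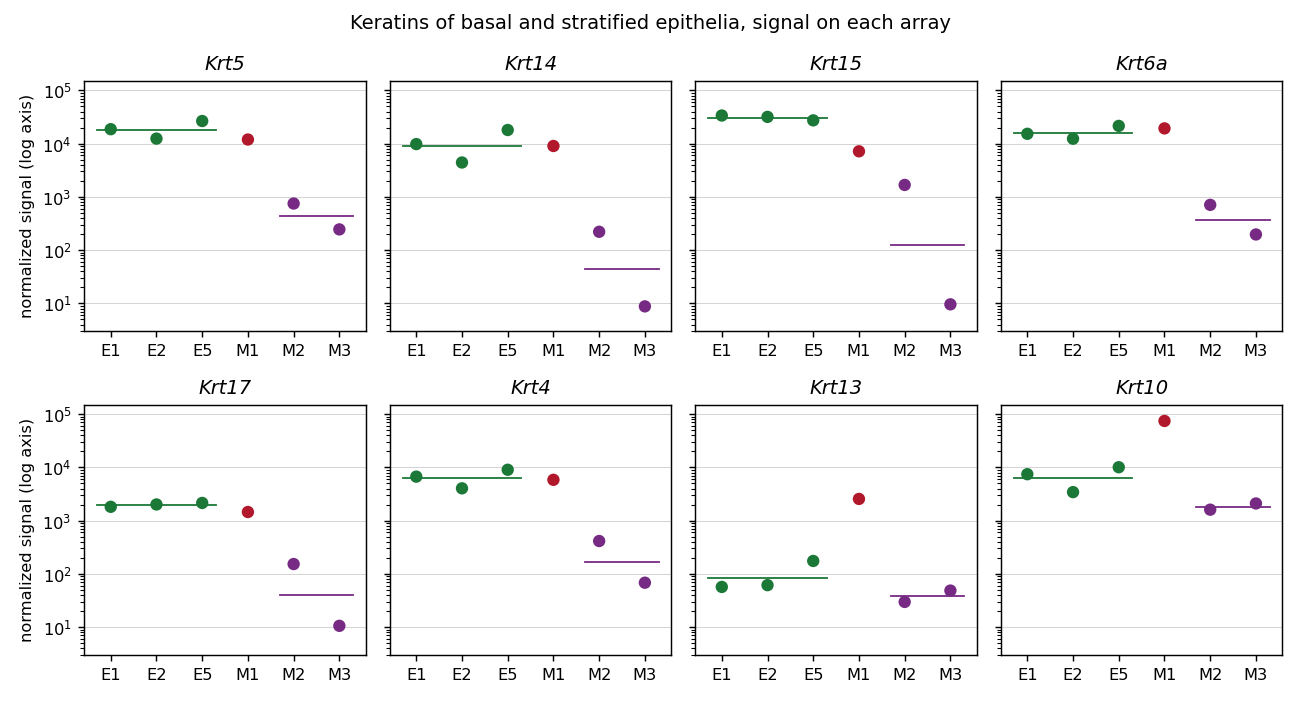
Normalized signal of each keratin (log axis) on epithelial arrays E1, E2 and E5 (green), mesenchyme 1 (M1, red) and mesenchyme 2 and 3 (M2 and M3, purple). Lines are geometric means of the green and of the purple points. Mesenchyme 1 lies near the epithelial arrays for most keratins and far above all arrays for Krt13 and Krt10.

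Krt5, the type II chain of basal cells, read 18694, 12443 and 26603 on epithelium 1, 2 and 5. It read 11949, 751 and 245 on mesenchyme 1, 2 and 3. Every epithelial array lay above every mesenchymal array, by only 1.04-fold over mesenchyme 1 and by 16.6-fold over mesenchyme 2. Such a full separation with epithelium above was seen for 15.5% of all genes tested over the 6 arrays, and for 3 of the 8 keratins, Krt5, Krt15 and Krt17. The difference was 5.36 ± 0.508 SE (n = 3 and 2 arrays, adjusted p = 0.00129 by limma) without mesenchyme 1 and 3.78 ± 1.26 (adjusted p = 0.152) with it. The fold was 41.1 without that array and 13.7 with it. The difference was 4.58 with mesenchyme 2 alone as the mesenchyme and 6.14 with mesenchyme 3 alone.

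Krt14, the type I partner of Krt5, read 9815, 4426 and 18047 on epithelium 1, 2 and 5. On mesenchyme 1 it read 9039, within the range of the epithelial arrays, and on mesenchyme 2 and 3 it read 221 and 8.78. The difference was 6.91 ± 0.965 without mesenchyme 1 (121-fold, adjusted p = 0.00412 by limma) and 4.62 ± 1.91 with it (adjusted p = 0.243). Its size rested on mesenchyme 3, where the signal was near the bottom of the scale: with mesenchyme 2 alone as the mesenchyme the difference was 5.28, and with mesenchyme 3 alone 8.54. The brightest Krt14 probe set is of a kind that can match related transcripts. A separate Krt14 probe set without that mark read 4068, 2222 and 5703 on the epithelial arrays, against 46.4 on mesenchyme 2 and 9.88 on mesenchyme 3. Without mesenchyme 1 it differed by 6.54 ± 0.540 (adjusted p = 0.00114 by limma among all probe sets). The remaining Krt14 probe set, also unmarked, was too dim to be tested (84.1 to 156 in epithelium). Its layers lay only 1.46 apart without mesenchyme 1, where its mesenchymal signals were 66.7 and 13.3. With the mean of its probe sets, Krt14 differed by 4.97 without mesenchyme 1 and passed (adjusted p = 0.00252 by limma).

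Krt15, a type I keratin of basal cells without a fixed type II partner, read 33780, 31820 and 27377 on epithelium 1, 2 and 5. It read 7182, 1678 and 9.60 on mesenchyme 1, 2 and 3. The epithelial arrays were close together, differing by at most 1.23-fold, while the mesenchymal arrays spread widely and did not overlap with them. The lowest epithelial array was 3.81-fold above mesenchyme 1, the clearest gap to that array among the 8 keratins. The difference was 7.21 ± 1.49 without mesenchyme 1 (148-fold, adjusted p = 0.0187 by limma) and 5.51 ± 1.83 with all arrays (adjusted p = 0.150). The mesenchyme 3 signal was near the bottom of the scale, and the value without mesenchyme 1 ran from 4.19 with mesenchyme 2 alone to 10.24 with mesenchyme 3 alone, and the call was lost without epithelium 1 (7.15, adjusted p = 0.0837). With mesenchyme 1 kept and mesenchyme 3 left out, Krt15 was the 1 keratin past the threshold (3.15, adjusted p = 0.0417).

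Krt6a, the type II keratin of wound edges and hair follicles, read 15309, 12374 and 21543 on the epithelial arrays 1, 2 and 5. It read 19351 on mesenchyme 1, inside the epithelial range, and 709 and 197 on mesenchyme 2 and 3. The difference was 5.35 ± 0.519 without mesenchyme 1 (40.7-fold, adjusted p = 0.00132 by limma) and 3.47 ± 1.47 with it (adjusted p = 0.254). On the brightest probe set the difference was 4.46 with mesenchyme 2 alone and 6.23 with mesenchyme 3 alone. Its other probe sets also passed without mesenchyme 1, at 3.02 and 4.52. With all arrays they gave 2.08 and 3.33 and did not pass (adjusted p = 0.213 and 0.118 by limma among all probe sets). On mesenchyme 1 these other probe sets read 1471 and 329, below every epithelial array. The near-identical neighbour Krt6b could share signal with Krt6a probe sets, which was not tested. Krt6b lay between 95.0 and 315 in epithelium, at 31975 on mesenchyme 1, at 110 on mesenchyme 2 and at 90.2 on mesenchyme 3, with no call without mesenchyme 1 (0.51, adjusted p = 0.666).

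Krt17, the type I keratin that often accompanies Krt6a, was the steadiest of the 8 in epithelium, at 1815, 2009 and 2145. It read 1449, 153 and 10.6 on mesenchyme 1, 2 and 3, so that all epithelial arrays lay above all mesenchymal ones. The lowest epithelial array was 1.25-fold above mesenchyme 1. The difference was 4.90 ± 0.704 without mesenchyme 1 (29.9-fold, adjusted p = 0.00461 by limma) and 3.42 ± 1.28 with it (adjusted p = 0.196). It was 3.57 with mesenchyme 2 alone and 6.24 with mesenchyme 3 alone. The dimmer Krt17 probe set (51.7 to 107 in epithelium) was not bright enough to be tested, and 1 further probe set names both Krt17 and Krt14 and was not used. With the mean of its probe sets, the difference without mesenchyme 1 was 3.37 and passed.

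Krt4, the type II keratin of upper layers in internal stratified epithelia, read 6692, 4037 and 9008 on the epithelial arrays 1, 2 and 5. It read 5835, 413 and 68.1 on mesenchyme 1, 2 and 3, with mesenchyme 1 again inside the epithelial range. The difference was 5.04 ± 0.680 without mesenchyme 1 (32.9-fold, adjusted p = 0.00357 by limma) and 3.39 ± 1.37 with it (adjusted p = 0.233). Against mesenchyme 2 alone it was 3.87, and against mesenchyme 3 alone 6.22. The other Krt4 probe set, of the kind without cross-matching marks, lay between 3191 and 3882 in epithelium, at 307 on mesenchyme 2 and at 140 on mesenchyme 3. It gave a smaller difference of 3.95 ± 0.352 without mesenchyme 1, which also passed (adjusted p = 0.00156 by limma among all probe sets). With all arrays its difference was 2.58 and did not pass (adjusted p = 0.275 by the same test).

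Krt13, the type I partner of Krt4, did not share its pattern. It read 56.7, 61.3 and 174 on epithelium 1, 2 and 5, 29.7 and 48.5 on mesenchyme 2 and 3, and 2552 on mesenchyme 1. The mesenchyme 1 value was 14.6-fold above the highest epithelial array. The other 2 Krt13 probe sets were dimmer and again brightest on mesenchyme 1, at 340 and 975, against at most 68.9 elsewhere. With all arrays the difference was -0.94 ± 1.48 (adjusted p = 0.759 by limma). Without mesenchyme 1 the gene lay below the filter on low signals, and the fit without that filter gave 0.91 ± 0.573 (adjusted p = 0.436).

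Krt10, the type I keratin of upper epidermis, read 7435, 3426 and 10051 on epithelium 1, 2 and 5. It read 1604 and 2098 on mesenchyme 2 and 3, the smallest gap to the epithelial arrays of the keratins tested, and 74373 on mesenchyme 1. Without mesenchyme 1 all epithelial arrays lay above both mesenchymal ones, the lowest by 1.63-fold, and the difference was 1.78 ± 0.453 (adjusted p = 0.0417 by limma). That call was the least secure of the 7. It was lost on leaving out epithelium 1 (1.67, adjusted p = 0.154 by limma), epithelium 5 (1.45, 0.0814), mesenchyme 2 (1.59, 0.264) or mesenchyme 3 (1.98, 0.162), without a filter on low signals (0.0519) and without a variance trend (0.0737). With all arrays the difference was 0.01 ± 1.38 (adjusted p = 0.998), and its sign depended on the settings. The only Krt10 probe set is of the kind that can match several transcripts of its gene.

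**Figure D2:**
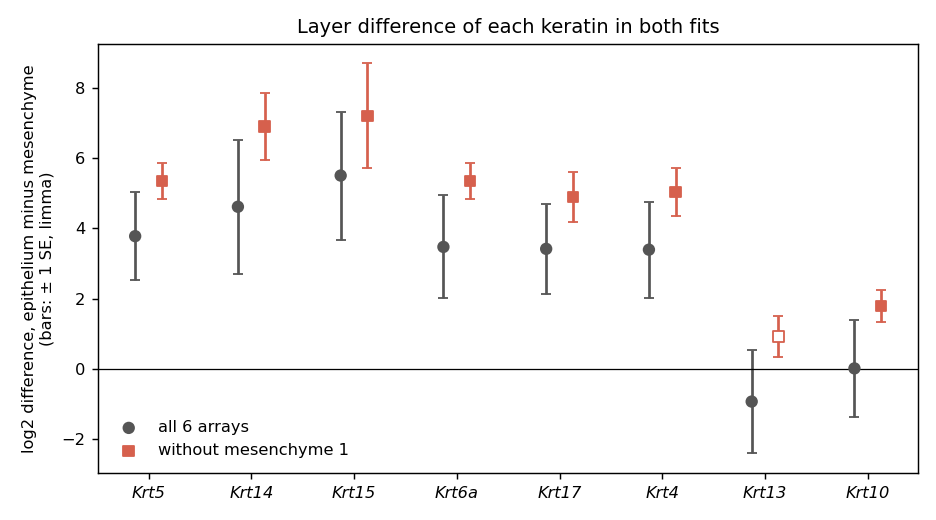
Log2 difference of each keratin, epithelium minus mesenchyme, with all 6 arrays (grey circles) and without mesenchyme 1 (orange squares). Bars are 1 SE from limma, and the open square for Krt13 is a value from the fit without a filter on low signals. Each difference lies higher and each bar is shorter without mesenchyme 1.

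Mesenchyme 2 and 3 differed from each other for most of the 8. With the offset of 16 added to both signals, mesenchyme 2 over mesenchyme 3 was 5.10 for Krt4, 3.40 for Krt6a, 2.93 for Krt5, 0.77 for Krt10 and 0.71 for Krt13. For Krt15, Krt14 and Krt17, whose mesenchyme 3 signals of 9.60, 8.78 and 10.6 lay near the bottom of the scale, the ratio depended on the offset: it was 66.2, 9.57 and 6.35 with it and 175, 25.2 and 14.5 without. Mesenchyme 2 was over 3-fold above mesenchyme 3 for 5 of the 8 keratins and 0.999% of all genes tested with the offset, and for 6 of the 8 and 1.52% without, Krt5 being the gene that differed. Any excess on mesenchyme 2 was seen for 54.0% of genes. These keratin ratios are of the brightest probe sets. The other probe sets of Krt14, Krt17, Krt4 and Krt6a gave smaller ratios. On mesenchyme 2 and 3 those of Krt14 read 46.4 and 9.88, and 66.7 and 13.3, and that of Krt17 read 15.9 and 5.68. The other Krt4 probe set read 307 and 140, and those of Krt6a read 14.7 and 11.2, and 167 and 226. Each comparison is of 1 array with 1 array and carries no test. The 12 epithelial markers without keratins moved the same way: all 12 were higher on mesenchyme 2, 7 of them over 3-fold with the offset and 8 without, with Shh, the hedgehog ligand of this epithelium, at 6259 against 191. On mesenchyme 2 these markers read a median of 5.71% of their epithelial mean, and Krt5, Krt14, Krt15, Krt6a, Krt17 and Krt4 read 3.90%, 2.05%, 5.41%, 4.32%, 7.68% and 6.28% of theirs. On mesenchyme 3 the same keratins read 1.27%, 0.08%, 0.03%, 1.20%, 0.53% and 1.04%, and the markers a median of 0.77%. Krt10 stood at 23.0% and 30.1% of its epithelial mean on mesenchyme 2 and 3, above the highest marker on both arrays. Of 25 markers of endothelium, pelvic neurons and mesenchyme, 0 were over 3-fold higher on mesenchyme 2. That count is near the share over all genes tested, 0.999% with the offset and 1.52% without, and so does not set these markers apart. The part of epithelial cells in the keratin signal of mesenchyme 2 was not tested.

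**Figure D3:**
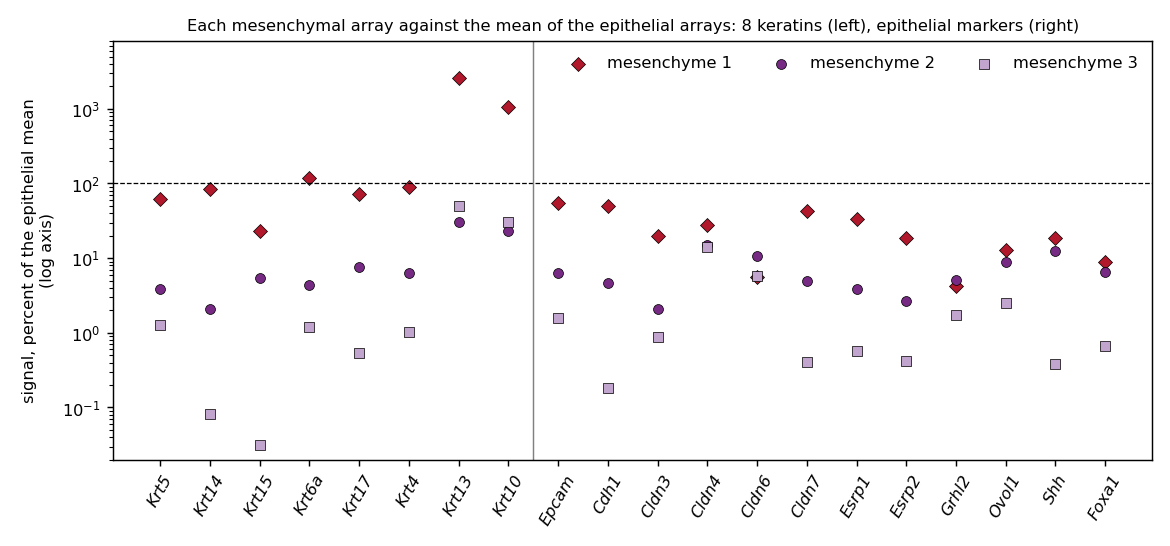
Signal on each mesenchymal array as a percent of the mean over the epithelial arrays (log axis), for the 8 keratins on the left and 12 epithelial markers on the right. The dashed line is the epithelial mean. On mesenchyme 1 Krt13 and Krt10 lie at 2617% and 1067%, while no epithelial marker reaches 100%.

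On mesenchyme 1 the 8 keratins split into groups. Krt13 and Krt10 read 2617% and 1067% of their epithelial mean there and were over 4-fold above all other arrays, as were 4.61% of all genes tested (22.4% were highest there by any margin). Krt13 was bright enough to be tested only through that array, and without any filter the share was 5.73% of the 18193 genes. Krt6a (118%), Krt4 (88.7%) and Krt14 (84.0%) fell inside the range of the epithelial arrays. Krt17 (72.8%), Krt5 (62.1%) and Krt15 (23.2%) fell below it. For Krt6a this held on the brightest probe set only. Its other probe sets read 1471 and 329 on mesenchyme 1, below every epithelial array (1516 to 1807 and 533 to 834). The epithelial markers without keratins read 4.21% to 55.6% of their epithelial mean on this array (median 19.2%), so Krt15 lay within their span, and the other 7 keratins lay above it. Of 20 markers of cornified epidermis, 10 were also over 4-fold above all other arrays on mesenchyme 1, which carries no test, and 16 were highest there. Among the 10, filaggrin (Flg) read 12314 against at most 25.7 elsewhere and hornerin (Hrnr) 16920 against at most 36.0, both too dim over the arrays to be tested. Other members did not follow: Tgm1 read 462 on mesenchyme 1 and 985 to 1735 in epithelium, Rptn was lowest there at 41.5, and Casp14 and Tgm3 were not highest there. The summed signal of the list was 133036 on mesenchyme 1, between 15642 and 27751 in epithelium, 7704 on mesenchyme 2 and 4630 on mesenchyme 3. The part of skin or of other organs in these keratin values was not tested.

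The same split ran through the wider family. Of 40 other keratin genes on the array, 30 were highest on mesenchyme 1 and 19 over 4-fold above all other arrays, the latter against 5.73% of all genes without a filter. Among the 13717 genes bright enough to be tested, which hold 29 of the 40, 22.4% were highest there. The share highest there without a filter was not computed. Krt1, the epidermal partner of Krt10, read 15566 on mesenchyme 1, between 537 and 1841 in epithelium, 249 on mesenchyme 2 and 148 on mesenchyme 3. Krt16, a partner of Krt6a in wounded skin, read 2597 on mesenchyme 1 and at most 178 elsewhere. Among hair and nail keratins, 11 of 19 on the array were over 4-fold above all other arrays on mesenchyme 1, and 0 of 6 keratins of simple epithelia were, again without a filter.

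**Figure D4:**
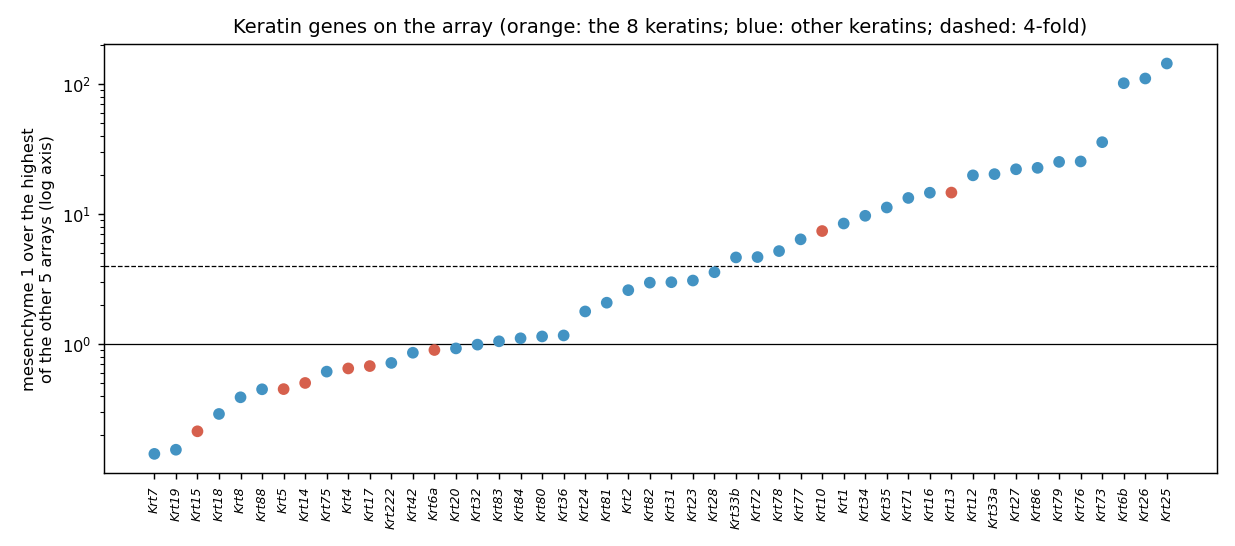
Signal on mesenchyme 1 divided by the highest of the other 5 arrays (log axis) for each keratin gene on the array, ordered by that ratio. Of the 8 keratins (orange), Krt10 and Krt13 lie above the dashed 4-fold line and the other 6 lie below 1, down to 0.21 for Krt15.

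Within the epithelium, the 8 keratins varied in a partly shared way. Krt5, Krt14, Krt6a, Krt4 and Krt10 were highest on epithelium 5 and lowest on epithelium 2, as were 25.3% of all genes tested. All 5 also had a spread over 1.5-fold, and 17.8% of all genes tested had both this order and such a spread. The highest array was 4.08-fold above the lowest for Krt14, 2.93-fold for Krt10, 2.23-fold for Krt4, 2.14-fold for Krt5 and 1.74-fold for Krt6a. Krt15 and Krt17 differed by at most 1.23-fold and 1.18-fold between epithelial arrays. The second Krt4 probe set was highest on epithelium 2, and only 6 of the 16 probe sets of the 8 genes had epithelium 5 highest and epithelium 2 lowest. Of the 12 epithelial markers, 0 followed this order, and Trp63, which encodes the basal cell factor p63, was highest on epithelium 2 (50260, against 38459 and 36409 on epithelium 1 and 5). Among genes of desmosomes and hemidesmosomes, the junctions that anchor keratin filaments, 9 of 19 followed it. These are single arrays and carry no test.

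The profiles over the 6 arrays, each centred on its own mean, were compared by root-mean-square distance in log2 units, as a description. Krt5 and Krt4 were the nearest pair of the 8 (0.31), followed by Krt6a and Krt4 (0.31) and Krt5 and Krt6a (0.35). Krt5 and its partner Krt14 were 1.00 apart, and Krt4 and its partner Krt13 2.35. Krt10 and Krt13 were 0.60 apart. Outside the family, the genes nearest to Krt5 were Cxcl15 (0.27), a chemokine gene, and Smim22 (0.30), and Cbr2, a carbonyl reductase gene, was nearest to Krt6a (0.24) and to Krt4 (0.36). Perp (0.28), a desmosomal membrane protein, and Epcam (0.29), an epithelial adhesion protein, were nearest to Krt17, followed by Tmem54 (0.32). Psapl1 (0.63), Lad1 (0.70), which encodes the basement membrane anchor protein ladinin, and Ap1m2 (0.70), an adaptor of epithelial protein sorting, were nearest to Krt14. Clca1 (0.78), Cdh1 (0.78), which encodes E-cadherin, and Tmprss2 (0.86) were nearest to Krt15. Krt13 was nearest to Hpd (0.26), Crybb1 (0.34) and Calml3 (0.36), and Krt10 to Adtrp (0.21), Plbd1 (0.29) and Lce1f (0.34), a gene of the cornified envelope. These distances share the layer difference and mesenchyme 1, which move many genes.

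Genes that work with these keratins were read from lists. Of 19 desmosome and hemidesmosome genes tested, 17 passed as higher in epithelium without mesenchyme 1, where 6.40% of all genes did, and 0 as lower, with a median log2 difference of 3.77. Pkp1, the plakophilin of stratified epithelia, differed by 7.23 ± 0.419 (adjusted p = 0.000645 by limma), Perp by 5.25 and Lama3, a chain of the laminin under hemidesmosomes, by 4.68. With all arrays 2 passed, against 1.95% of all genes, Lama3 (3.77) and Evpl (2.51), which encodes envoplakin. Of 15 regulators and companions of basal cells tested, 10 passed as higher in epithelium and 1, Ngfr, as lower without mesenchyme 1 (median 1.78). Zfp750, a transcription factor of epidermal differentiation, differed by 5.78, Trp63 by 5.47 ± 0.648 (adjusted p = 0.00227) and the zinc finger factor Klf5 by 3.96. With all arrays 5 passed, among them Zfp750 (4.73), Klf5 (3.47) and Sox2 (2.63), while Trp63 did not (adjusted p = 0.0923).

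The same shares of all genes, 6.40% without mesenchyme 1 and 1.95% with all arrays, stand beside the counts of the remaining lists. Of 7 partner and neighbouring keratins of stratified epithelia tested without mesenchyme 1, 3 passed as higher in epithelium: Krt75 (4.17 ± 0.411, adjusted p = 0.00137 by limma), Krt80 (2.54) and Krt1 (2.50). With all arrays 0 of 10 passed, and those added to the 7 were bright enough to be tested only through mesenchyme 1. Of 6 keratins of simple epithelia, 4 passed without mesenchyme 1, among them Krt19 (5.45), Krt7 (4.67) and Krt8 (4.66), and 1, Krt7 (3.92), with all arrays. Hair and nail keratins had 0 of 6 past limma's threshold without mesenchyme 1 and 0 of 11 with all arrays. Those added to the 6 were bright enough to be tested only through mesenchyme 1. The 2 hair and nail keratins with the highest mean log2 signal over the 6 arrays were Krt81 and Krt32. Krt81 read 1590 on mesenchyme 1 and 428 to 765 elsewhere, and Krt32 read 505 on mesenchyme 1 and 208 to 511 elsewhere. Of 14 genes of cornified epidermis, 4 passed as higher in epithelium without mesenchyme 1, including the crosslinking enzyme Tgm1 (3.23), Sprr1a (3.01) and loricrin (Lor, 2.88). With all arrays, where Ivl took the place of Rptn among the 14 tested, Tgm1 (2.65) alone passed. Loricrin read between 10074 and 19300 in epithelium, 40727 on mesenchyme 1, 3922 on mesenchyme 2 and 982 on mesenchyme 3. Among uroplakins, the plaque proteins of mature urothelium, 3 of 6 passed without mesenchyme 1: Upk1b (5.47), Upk3bl (4.99) and Upk3a (1.69). With all arrays 1 passed, Upk3bl (5.01).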

How the data were processed

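The deposited table gives a linear probe set intensity for each array. The submitters' processing notes name GCOS, Affymetrix's array software, with no version or settings. In the deposited values every array has a mean of 1500 once 2% of its probe sets are trimmed at each end, so the authors' intensity values share a common scaling. Array medians ran from 126 to 254.

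Of 45101 probe sets, 64 controls were left out, and 34945 of the rest name 1 gene, 932 several and 9160 are unnamed here. On the log2(signal + 16) scale the 6 arrays were quantile normalized together. The brightest probe set by mean over the 6 arrays stood for each gene. Probe sets above the 40th percentile of mean log2 signal over the arrays in the fit were tested with limma 3.58.1 in R 4.3.3 (lmFit, eBayes with an intensity trend, no covariate). P-values were adjusted by Benjamini-Hochberg over all genes, with a threshold of 0.05. The code was tested on simulated data.

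The keratins and gene lists were chosen with earlier results of these data known. Named are all 8 keratins, up to 3 members of each list past the threshold with the largest difference, and the 3 genes of nearest profile to each keratin. Where a list had none past the threshold, its 2 of highest mean log2 signal are named. Krt6b, Krt16, Flg, Hrnr, Rptn, Casp14, Tgm3, Ivl, Ngfr, Shh and Hoxd13, and Trp63 with all arrays or by array, were named after their values were seen. Alternatives were other offsets, normalizations, filters, probe set rules and variance models, array weights, a replicate block and each array left out. Promoter windows came from RefSeq, GRCm38.p6. Precision is limited by how few arrays there are.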

Additional observations from a re-analysis of the deposited data

How the results depend on the processing

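With all 6 arrays, 0 of the 8 keratins passed under every alternative except array quality weights (7), and leaving out 1 array gave 0 to 7, the 7 being without mesenchyme 1 and 1 without mesenchyme 3. Without mesenchyme 1, between 5 and 7 passed under every alternative. Genes past the threshold over the whole array numbered 820 with all arrays, 5109 with array quality weights and 0 with the replicate block, and 146 to 1976 with 1 array left out. Without mesenchyme 1 they numbered 1976, and 652 to 3876 with 1 further array left out. Leaving out mesenchyme 2 or 3 there leaves 1 mesenchymal array, assumed to vary like the others.

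Krt10 with all arrays turned below 0 at an offset of 64 (-0.0067), with no normalization (-0.034), with the replicate block (-1.12) and without epithelium 1 (-0.11), epithelium 5 (-0.32), mesenchyme 2 (-0.98) or mesenchyme 3 (-0.79). Over all arrays left out in turn it ran from -0.98 to 1.78. None of the negative values passed, and the cause was not tested. Without mesenchyme 1, Krt10 also lost its call with every probe set tested (adjusted p = 0.0513 by limma). Krt5, Krt14, Krt6a, Krt17 and Krt4 kept call and sign under all 17 alternatives run. Krt10 has no value with probe sets of the unique kind only.

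The replicate block is limited by the labels, which give numbers 1 and 2 to both layers and do not say that they pair samples. Deviations from the group means correlated at -0.05 and -0.02 for the same-numbered arrays, and at 0.02 and 0.06 for arrays of different number. The mesenchymal mean includes mesenchyme 1, which stood apart, so these values cannot decide whether the arrays are paired. Under the block the median log2 difference was 0.17 over all genes, against 0.12 as processed, 0.06 without normalization and 0.23 with median centring. No block could be fitted without mesenchyme 1. The normalization over 5 arrays (7 of the keratins past the threshold, 1983 genes) and the test of every probe set were chosen after seeing the data. Signals near the bottom of the scale, as for Krt14, Krt15 and Krt17 on mesenchyme 3, limit the folds.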
